A study of Mus musculus with 8 samples.

Results

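A set of 9 signals that Paneth cells are known to offer to the intestinal stem cells beside them was followed as RNA in sorted Paneth cells with 1 or no intact copy of Mll1. They are the Wnt ligands Wnt3, Wnt6, Wnt9b and Wnt11, the Egf-type ligands Egf and Tgfa, the Notch ligands Dll1 and Dll4, and Bst1, an enzyme that acts outside the cell. They were listed by name with no threshold on their values, although earlier results of these data were known, and are 9 of the 53801 genes in the count table. All 9 received at least 1 count, and 5 of them (Wnt3, Egf, Tgfa, Dll1 and Dll4) passed the filter on low counts, as did 13439 genes in all.

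Paneth cells sit at the base of the small intestinal crypt in direct contact with Lgr5+ stem cells. Wnt ligands bind Frizzled and Lrp receptors and stabilise β-catenin, Egf and Tgfa bind the receptor Egfr and activate Mapk signalling, and Dll1 and Dll4 sit on the cell surface and activate Notch receptors on the neighbouring cell. Bst1 makes cyclic ADP-ribose from NAD and is known as a Paneth cell product that stem cells respond to under calorie restriction.

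The 4 control libraries came from β-catGOF; Mll1+/- mice and the 4 knockout libraries from β-catGOF; Mll1-/- mice. Every animal carried the Lgr5-EGFP-IRES-CreERT2 allele and a β-catenin allele that loses exon 3 on recombination, which makes β-catenin resist degradation, so that the controls were Wnt-activated and heterozygous and no wild type was among the samples. Tamoxifen (1 mg, intraperitoneally, on 3 days) was given at an age of several weeks, mice of both sexes were used in the study, and cells were sorted at 10 d after induction. Recombination driven from the Lgr5 locus starts in stem cells. By immunohistochemistry on Mll1-/- tissue of the same day, the study describes Mll1 protein as lost throughout the crypt, Paneth cells included. The RNA counts of the sorted EpCAM+ Cd24+ cells do not measure this. The methods paragraph on the sorting names the Mll1 alleles without β-catGOF, whereas the sample labels give the Mll1 genotype and the study's results name both.

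Totals on genes lay between 13557350 and 14380240 counts in the controls and between 13037832 and 13554171 in the knockouts. Kmt2a, which encodes Mll1, had 268 to 719 counts in the controls and 328 to 523 in the knockouts (log2 fold change -0.06, standard error 0.24, adjusted p = 0.995, edgeR). These counts sum all exons and do not show whether the targeted exons were lost. All 11 Paneth markers were detected in every library and summed to between 248700 and 771600 normalized CPM (counts scaled to equal library size with edgeR's TMM factors). Defa24 made up most of this sum, with means of 316300 in the controls and 283900 in the knockouts. The 8 stromal markers, none of which passed the filter, summed to at most 2.55. The 10 enteroendocrine markers summed to 239 to 687 in the controls and 51.1 to 220 in the knockouts, with all 10 fitted lower, as were 6595 of the 13439 tested genes. Of these 10, 7 had an unadjusted p under 0.05, against 2.53% of all tested genes in that direction, and 1, Neurod1, was called at a 10% false discovery rate (adjusted p = 0.0629, edgeR), against 0.0521%. With each library left out in turn Neurod1 was called in 3 of 8 fits (without control 2, knockout 1 or knockout 3), with an adjusted p of 0.0363 to 0.192, and Tac1 and Tph1 were called too without knockout 1. In these 3 fits 0.179%, 0.232% and 1.58% of all tested genes were called. All 6 tuft markers were fitted lower too, with sums of 156 to 524 and 85.5 to 340, as were 4 of the 5 tested enterocyte markers (sums of 116 to 292 and 78.2 to 217 over 8 genes, median log2 fold change -0.72). Single libraries moved these counts. With an unadjusted p under 0.05, 0 of the 6 tuft markers were lower with all libraries (2.53% of all tested genes), 6 without knockout 1 and 4 without control 4. Of the 5 enterocyte markers it was 1 with all libraries and 3 without knockout 4. There Apoa1 turned from 0.09 to -2.10 and was called (adjusted p = 0.0733, edgeR), against 0.174% of all tested genes. With a library other than knockout 3 left out, the share of all tested genes with an unadjusted p under 0.05 was not counted. The marker counts in those fits therefore cannot be set against it. The 8 stem cell markers summed to 747 to 1567 and 320 to 1030, with an unadjusted p under 0.05 in 2 fitted higher, against 4.35%, and 3 fitted lower, against 2.53%. Axin2, a Wnt target, and Tnfrsf19 were fitted higher (log2 fold change 0.90 and 1.36), and Ascl2, Olfm4 and Slc12a2 lower (-0.82, -1.11 and -0.85), while Lgr5 was at 0.04. None of the 8 was called with all libraries, and Axin2 and Tnfrsf19 were called without knockout 3 (adjusted p = 0.0548 and 0.00187, edgeR), a fit in which 1.58% of all tested genes were called. Single libraries moved the stem cell marker counts under an unadjusted p of 0.05 too. Those fitted lower fell from 3 to 1 without control 1, control 2, control 4 or knockout 2. They fell to 2 without knockout 1, 3 or 4, and stayed at 3 without control 3. Those fitted higher stayed at 2, except without knockout 2, where 1 was left. The 9 goblet markers, 4 higher and 5 lower, summed to 9317 to 17830 and 7927 to 19080. Spink4 alone made up 75.7% to 81.1% of the goblet sum, with means of 9477 and 9293. The goblet markers Fcgbp (114 ± 106 and 24.1 ± 8.15, log2 fold change -2.24, standard error 0.62, adjusted p = 0.361, edgeR) and Zg16 (90.2 ± 144 and 2.56 ± 4.56, log2 fold change -5.05, standard error 2.02, adjusted p = 0.680) had an unadjusted p under 0.05, both fitted lower, against 2.53% of all tested genes. Control 3 was the highest in both (266 and 304), the other 3 controls had means of 63.6 ± 39.6 and 18.9 ± 26.7, and without control 3 the log2 fold changes were -1.40 and -2.82. Fcgbp was called without control 2 (adjusted p = 0.0843, edgeR), against 0.179% of all tested genes. The other way went Clca1, at 21.6 ± 33.4 and 36.6 ± 28.7 (log2 fold change 0.76, adjusted p = 0.979, edgeR, and 2.85 without control 3), and Muc2, Agr2 and Spdef at 0.19, 0.17 and 0.10. The part of these cells in the ligand values was not tested.

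Knockout 3 stood apart: it had counts on 19662 genes against 22623 to 26074 in the other libraries, the highest Paneth sum (771600) and the lowest stem cell marker sum (320 against 699 to 1567). Its sum of the 7 immune markers was the highest too, but Lyz2 gave 625.9 of it, and the other 6 summed to 6.95, against 6.93 to 29.1 in the other libraries. Without it, 10 of the 11 Paneth markers were fitted lower, 4 of them at an unadjusted p under 0.05 (7 and 0 with all libraries), 8 of the 9 goblet markers were fitted lower (1, Tff3, at an unadjusted p under 0.05, and Fcgbp and Zg16 no longer), and 5 of the 10 enteroendocrine markers, all still fitted lower, had an unadjusted p under 0.05, where 4.85% of all genes then tested did in that direction. For the 5 tested ligands, for Wnt6 and Bst1, and for the companion genes named with a log2 fold change, the value without knockout 3 is also given.

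The start of each gene is shown because Mll1 carries a CXXC domain that binds unmethylated CpG dinucleotides, and because the ligands differed in this property of their sequence. RefSeq (GRCm38.p6) gave 11 start windows for 8 of the ligands, each from 250 bases before to 50 bases after a start site, and Bst1 was not among them. A window held a median of 7 CpG over 32851 windows of the same length. The windows of Wnt3, Wnt6, Wnt9b and Tgfa held 24, 31, 29 and 24 CpG, the single window of Dll4 held 17, and the pairs of windows of Wnt11 and Dll1 held 45 and 23, and 24 and 15. The upstream window of Egf held 0 and the internal one 17. The 150 bases before the annotated exons are printed for the ligand with the highest level (Wnt3), a ligand detected almost only in knockouts (Wnt6), and both Egf-type ligands (Egf and Tgfa). Bst1, with 1 count in the controls and 29 in the knockouts, had no window to print. The stretches are written 5′ to 3′ on the strand of the gene in mm10/GRCm38 with each CpG in capitals. They lie at chr11:103774000-103774149 on the plus strand (Wnt3), chr1:74771742-74771891 on the plus strand (Wnt6), chr3:129755323-129755472 on the minus strand (Egf) and chr6:86195072-86195221 on the plus strand (Tgfa).
Wnt3: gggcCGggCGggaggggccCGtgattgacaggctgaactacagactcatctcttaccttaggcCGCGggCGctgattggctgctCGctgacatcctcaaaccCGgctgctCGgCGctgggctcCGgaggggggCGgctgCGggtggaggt
Wnt6: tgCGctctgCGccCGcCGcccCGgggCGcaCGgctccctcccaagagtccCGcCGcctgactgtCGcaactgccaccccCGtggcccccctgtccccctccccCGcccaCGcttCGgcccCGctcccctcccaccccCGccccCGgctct
Egf: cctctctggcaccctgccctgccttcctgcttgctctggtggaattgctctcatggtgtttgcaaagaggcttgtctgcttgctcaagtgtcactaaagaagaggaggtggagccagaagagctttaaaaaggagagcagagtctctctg
Tgfa: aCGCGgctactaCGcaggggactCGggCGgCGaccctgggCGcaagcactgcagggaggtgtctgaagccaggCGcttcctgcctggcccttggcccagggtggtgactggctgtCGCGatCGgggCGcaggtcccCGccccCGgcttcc
These stretches held 13, 17, 0 and 14 CpG in that order. Of 3 short motifs sought on both strands of the 11 windows, the Tcf/Lef core CTTTGAT was met in 1 window, the upstream one of Wnt11, and in 3.73% of all windows. The E-box CAGCTG was met in 1 window, of Dll1, against 16.3% of all, and the Rbpj core GTGGGAA in none, against 6.38%. No binding or chromatin data accompany these windows.

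In the comparison of the genotypes, 0 of the 5 ligands that passed the filter were called at a 10% false discovery rate by edgeR's quasi-likelihood test, where 38 of 13439 genes (0.283%) were called, 31 of them (0.231%) with the knockouts higher and 7 (0.0521%) with the knockouts lower. With the unadjusted p required to be under 0.05, 1 of the 5, Tgfa, was higher in the knockouts, against 4.35% of all tested genes in that direction, and 0 were lower, against 2.53%. Without knockout 3, Tgfa was higher, against 6.48% of the genes then tested, and Wnt3 was lower, against 4.85%. Wnt6 also entered that fit, but only through its knockout counts, and is not counted here. With limma-voom, which gives each library a quality weight, Tgfa was higher, against 6.48%, and Wnt3 lower, against 5.66%. In edgeR the unadjusted p of Tgfa stayed under 0.05 without control 1 or knockout 4. It did not without control 2, 3 or 4 or knockout 1 or 2 (0.051 to 0.206), nor with upper-quartile factors (0.051). The groups did not separate completely in any of the 5, against 4.52% of all tested genes. The 5 log2 fold changes had a median of -0.28, against 0.01 over all tested genes, with 2 above 0 (Egf and Tgfa) and 3 below (Wnt3, Dll1 and Dll4). In bulk RNA, fewer cells that make a transcript and less of it in each cell cannot be told apart.

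The levels of the 9 genes spanned a wide range. Per kb of exon length, Wnt3 stood first in the controls with 8.36 ± 1.64 normalized CPM per kb (SD, n = 4), above 85.6% of the tested genes when taken over all 8 libraries. Dll1 (1.66 ± 0.513), Dll4 (1.59 ± 0.597), Tgfa (0.63 ± 0.173) and Egf (0.404 ± 0.148) followed. Wnt9b (0.0530), Wnt6 (0.0182), Bst1 (0.0068) and Wnt11 (0.0048) came last, each on a few counts. The ranges of neighbours in this order overlapped in the controls except at 2 steps, between Wnt3 and Dll1 and between Egf and Wnt9b. In the knockouts Wnt3 was again first (6.63 ± 1.53), and every library of both groups lay at or above 5.36, while no library of another ligand exceeded 2.10.

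**Figure D1:**
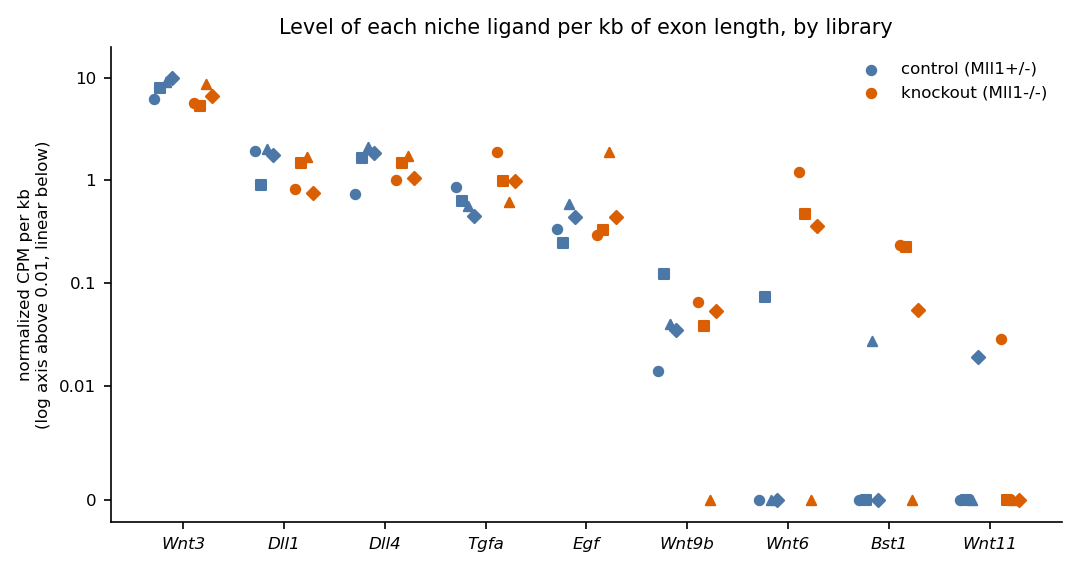
Normalized CPM per kb of exon length (log axis above 0.01, linear below) for the 9 ligands in the 4 control (blue) and 4 knockout (orange) libraries, in the order of the control means, with circle, square, triangle and diamond for replicates 1 to 4. Wnt3 lies between 5.36 and 10.1 in all 8 libraries, and Wnt6 and Bst1 lie at 0 in most controls and above every control in 3 knockouts.

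Wnt3 (ENSMUSG00000000125; chr11:103774150-103817957, plus strand) is the main Wnt ligand of Paneth cells and shares no exon bases with another gene. Its raw counts were 305, 310, 311 and 391 for controls 1 to 4 and 295, 286, 229 and 338 for knockouts 1 to 4. Scaled by TMM factors these were 19.2, 24.7, 28 and 31.0 normalized CPM for controls and 17.6, 16.5, 27.0 and 20.6 for knockouts. Knockouts 1 and 2 lay below every control, and knockouts 3 and 4 within the control range. Control and knockout means were 25.7 ± 5.05 and 20.4 ± 4.72 normalized CPM (SD, n = 4 per group), and the log2 fold change was -0.34 (standard error 0.21, 95% interval -0.81 to 0.13, adjusted p = 0.869, edgeR). An exact two-sided permutation test over the 35 ways to divide 8 libraries into groups of 4, on log2 of normalized CPM plus 1, gave p = 0.2, and the smallest p these splits allow is 0.0286. The interval does not reach a loss of 1 log2 unit. Without knockout 3 the log2 fold change of Wnt3 was -0.50 (adjusted p = 0.339), and with limma-voom it was -0.54 (adjusted p = 0.239). Once the values had been seen, the 4 lowest Wnt3 levels were found in control 1 and knockouts 1, 2 and 4, the libraries with the 4 lowest Paneth marker sums (248700 to 337700), and the 4 highest in the libraries with sums of 414300 to 771600. The TMM factors were 1.15 to 1.34 in the former libraries and 0.632 to 0.915 in the latter, and the raw counts did not split in this way. The part of the marker sum and of the scaling in the genotype difference was not tested. With library totals alone and no TMM factor, the median of all tested genes moved to 0.25, and Wnt3 lay 0.38 log2 units below it.

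Wnt6 (ENSMUSG00000033227; chr1:74771892-74785322, plus strand) was near 0 in the controls and present in 3 knockouts. Its raw counts were 0, 2, 0 and 0 for controls 1 to 4 and 44, 18, 0 and 13 for knockouts 1 to 4. Knockouts 1, 2 and 4 thus lay above every control, while knockout 3 held no count. The levels were 0.0398 ± 0.0796 normalized CPM for controls and 1.11 ± 1.10 for knockouts, so that the SD in the knockouts was as large as the mean. The summed counts, 2 against 75, correspond to a ratio of 33.2 (95% interval 8.86 to 279). That interval covers counting error only, since PCR copies of 1 molecule are counted separately, and the spread between libraries is wider. The exact permutation test gave p = 0.143. With 3 libraries above 10 counts Wnt6 failed the filter and had no test in the comparison of all 8 libraries. Without a filter edgeR gave a log2 fold change of 4.60 (adjusted p = 0.00542) in a fit in which 383 of 37039 genes (1.03%) were called. Without knockout 3 it passed the filter and was called (log2 fold change 4.98, adjusted p = 0.0267) in a fit in which 223 of 14086 genes (1.58%) were called. It also passed the filter with any 1 control left out, and its adjusted p then lay between 0.602 and 0.655. In these fits it passed only through its knockout counts, so that passing depended on the difference itself, and the fitted value depends on the prior count. The difference in mean level was 1.07 normalized CPM over all libraries, 0.569 without knockout 1 and 1.44 without knockout 3.

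Wnt9b and Wnt11 were at the limit of detection. Wnt9b (ENSMUSG00000018486; chr11:103727364-103749821, minus strand), best known as a ligand of kidney development, received 1, 7, 2 and 2 counts in the controls and 5, 3, 0 and 4 in the knockouts. The 12 counts in each group gave a ratio of 0.884 (95% counting interval 0.363 to 2.15) and an exact permutation p of 0.714. Wnt11 (ENSMUSG00000015957; chr7:98835112-98855195, plus strand), a ligand that can act without β-catenin, received 1 count in control 4, 2 counts in knockout 1 and 0 in the other 6 libraries (exact permutation p = 1.0). The summed counts of Wnt11 gave a ratio of 1.77 with a 95% counting interval of 0.0920 to 104. As for Wnt6, these intervals cover counting error only, and the spread between libraries is wider. Differences within the intervals, and possibly some beyond them, were not detectable at this depth, at which 3 counts correspond to 0.173 to 0.354 normalized CPM.

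**Figure D2:**
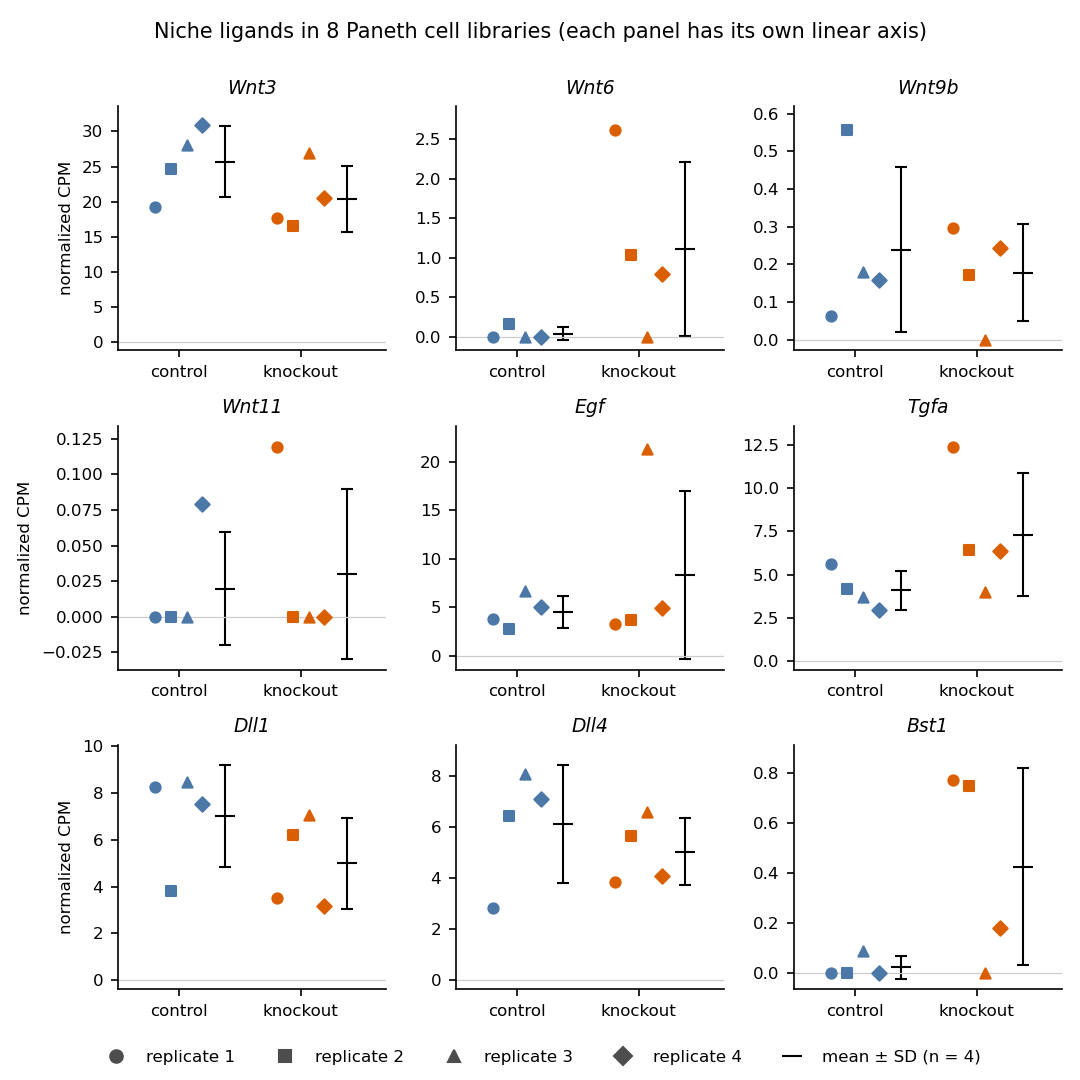
Normalized CPM of the 9 ligands in each library, 1 panel per gene with its own linear axis. Points are libraries (symbols for replicates 1 to 4), bars are mean ± SD (n = 4). Knockout 3 lies at 21.3 for Egf and at 0 for Wnt6 and Bst1, and no panel shows complete separation of the genotypes.

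Summed per kb, the 19 Wnt genes of the mouse reached 9.15 ± 1.56 normalized CPM per kb in the controls and 7.86 ± 0.995 in the knockouts. Wnt3 made up 91.0% ± 3.02 of this sum in the controls and 83.7% ± 9.98 in the knockouts, with ranges of 87.4% to 94.1% and 72.6% to 95.6% that overlapped. The share of Wnt6 was 0.203% ± 0.406 in the controls and 6.73% ± 6.36 in the knockouts, up to 15.2% in 1 library. Of the 15 other Wnt genes 1, Wnt5a, passed the filter (log2 fold change -0.85, standard error 0.56, adjusted p = 0.881, edgeR, and -1.04 without knockout 3). The 3 with the highest levels were Wnt5b (2 to 10 counts in a control, 0 to 18 in a knockout), Wnt4 (5 to 15 and 4 to 8) and Wnt10a (1 to 8 and 0 to 11).

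Wnt3 and Wnt6 each have another Wnt gene beside them on the chromosome. Wnt9b lies 24.3 kb from Wnt3 on the opposite strand, and its 0 to 7 counts stood beside 229 to 391 for Wnt3. Wnt10a lies 6.2 kb past the end of Wnt6 on the same strand. It received 1, 1, 2 and 8 counts in the controls and 8, 11, 0 and 1 in the knockouts, so that its groups overlapped, and knockout 4, with 13 counts of Wnt6, held 1 of Wnt10a.

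**Figure D3:**
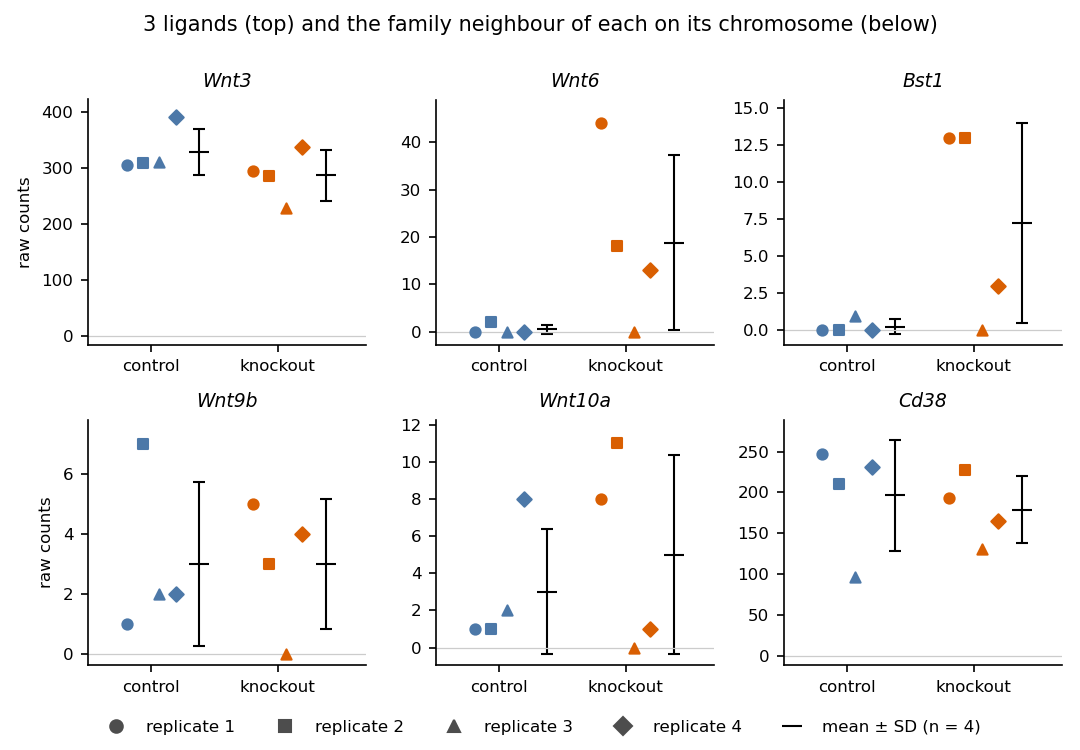
Raw counts per library of Wnt3, Wnt6 and Bst1 (top) and of the related gene next to each on the chromosome, Wnt9b, Wnt10a and Cd38 (below), with mean ± SD (n = 4). Wnt6 reaches 44 counts in knockout 1 where Wnt10a has 8, and Bst1 reaches 13 counts where Cd38 has 193 and 227.

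The 6 genes for Wnt ligand release all passed the filter. None was called, 4 were fitted higher and 2 lower, and the median log2 fold change was 0.23. Of them 3 had an unadjusted p under 0.05, each higher in the knockouts, against 4.35% of all tested genes: Wls, Gpc4 and Sdc1. Wls, the carrier that brings Wnt proteins to the cell surface, had 16.8, 22.3, 21.2 and 30.6 normalized CPM for controls and 28.1, 33.9, 29.7 and 31.6 for knockouts. Knockouts 2 and 4 lay above every control, and knockouts 1 and 3 lay below control 4. Its log2 fold change was 0.44 (standard error 0.20, adjusted p = 0.702, edgeR), and 0.45 without knockout 3. Sdc1, a cell surface heparan sulfate proteoglycan, had the largest change of the list, from 4.89 ± 2.01 to 9.99 ± 3.63 (log2 fold change 1.03, standard error 0.35, adjusted p = 0.513, and 1.13 without knockout 3). Gpc4, a glypican chosen for mention after its values were seen, was the single member whose groups did not overlap, with 3.10 to 6.12 in the controls and 6.45 to 9.12 in the knockouts (log2 fold change 0.81, adjusted p = 0.562, and 0.79 without knockout 3), where 4.52% of all tested genes separate. Tmed2 and Tmed10, cargo receptors of the early secretory pathway, had log2 fold changes of -0.17 and 0.01, or -0.12 and -0.17 without knockout 3. Porcn, the acyltransferase that lipid-modifies Wnt proteins, was at -0.75 with a 95% interval of -2.29 to 0.78 (-0.41 without knockout 3). None of the 7 R-spondins and Bmp antagonists, which stromal cells make, passed the filter, and no library held more than 11 counts of any of them. The most abundant of these per kb were Chrd, Grem1 (0 to 7 counts in a control, 0 in every knockout) and Nog.

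Egf (ENSMUSG00000028017; chr3:129677565-129755316, minus strand), the founding ligand of Egfr, rested on a single library. Its raw counts were 60, 35, 74 and 63 for controls 1 to 4 and 56, 65, 181 and 81 for knockouts 1 to 4, or 3.77, 2.79, 6.66 and 4.99 normalized CPM and 3.34, 3.74, 21.3 and 4.93. Knockout 3 lay above every other library, and the other 3 knockouts lay within the control range. Control and knockout means were 4.55 ± 1.67 and 8.33 ± 8.69 normalized CPM, and the log2 fold change was 0.85 (standard error 0.57, 95% interval -0.41 to 2.10, adjusted p = 0.883, edgeR). The exact permutation test gave p = 0.714. Without knockout 3 the log2 fold change was -0.18 (adjusted p = 0.884), of opposite sign, and with limma-voom it was -0.15 (adjusted p = 0.901). Over all alternatives the adjusted p of Egf lay between 0.445 and 1. Of its exon bases 5.38% also belong to Gm42697 on the other strand, and the strand setting of the counting is not given in the sources used here.

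Tgfa (ENSMUSG00000029999; chr6:86195223-86275719, plus strand), a membrane-anchored Egfr ligand, came nearest to a difference among the 5 tested ligands. Its raw counts were 89, 52, 41 and 37 for controls 1 to 4 and 208, 112, 34 and 105 for knockouts 1 to 4. In normalized CPM the controls were at 5.60, 4.14, 3.69 and 2.93 and the knockouts at 12.4, 6.45, 4.01 and 6.39. Knockouts 1, 2 and 4 lay above every control, and knockout 3 lay among the controls. Control and knockout means were 4.09 ± 1.12 and 7.31 ± 3.58 normalized CPM, and the log2 fold change was 0.84 (standard error 0.36, 95% interval 0.05 to 1.64). Adjusted over all tested genes by edgeR, its p was 0.680. The exact permutation test gave p = 0.0857. The log2 fold change lay between 0.47 (without knockout 1) and 1.04 with a library left out, and the adjusted p between 0.203 and 0.957. Without knockout 3 it was 1.03 (adjusted p = 0.203). As with Wnt3 but in the opposite sense, the 4 highest Tgfa levels were in the libraries with the 4 lowest Paneth marker sums, control 1 among them, a pattern seen after the fact whose part in the difference was not tested. With library totals alone Tgfa lay 0.89 log2 units above the median of all tested genes.

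Across the 11 Egf-type ligand genes the sum per kb was 5.13 ± 0.925 in the controls and 7.58 ± 1.44 in the knockouts, with ranges of 4.38 to 6.45 and 6.38 to 9.67 that overlapped by a small margin. Tgfa made up 12.6% ± 4.40 of it in the controls and 15.2% ± 8.20 in the knockouts, and Egf 8.32% ± 4.01 and 10.8% ± 12.6. Neither was the main Egf-type transcript. Hbegf, heparin-binding Egf, held 42.5% ± 11.9 in the controls and 24.1% ± 11.9 in the knockouts, and Areg, amphiregulin, 22.4% ± 7.48 and 31.4% ± 11.4. Of the 9 other ligands of this family 4 passed the filter and none was called, with 2 higher and 2 lower. Btc, betacellulin, had the largest change: 1.26, 0.557, 2.52 and 2.45 normalized CPM for controls and 6.97, 8.24, 2.00 and 2.68 for knockouts. Knockouts 1, 2 and 4 lay above every control and knockout 3 did not, the same arrangement as in Tgfa and Wnt6. How many of all tested genes showed this arrangement, which recurs in genes named below, was not counted. Knockouts 1, 2 and 4 had TMM factors of 1.22 to 1.34 and knockout 3 one of 0.632, and the part of the scaling in this arrangement was not tested. The log2 fold change of Btc was 1.57 (standard error 0.56, adjusted p = 0.557, edgeR) and 1.82 without knockout 3 (adjusted p = 0.139), and without a filter Btc was called (adjusted p = 0.0445). Areg was at 1.43 ± 0.679 and 2.89 ± 1.12 normalized CPM (log2 fold change 1.01, adjusted p = 0.728, and 0.90 without knockout 3) and Hbegf at 5.31 ± 2.14 and 4.50 ± 2.53 (log2 fold change -0.22, adjusted p = 0.985, and 0.08 without knockout 3, of opposite sign).

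Soluble Egf-type ligands are cut from the membrane, and the 6 genes for this step and for the transport before it all passed the filter. None was called, with 4 higher, 2 lower and a median log2 fold change of 0.17. Adam10, a sheddase that cuts Egf and betacellulin and also Notch, had 23.5, 17.4, 25.8 and 16.9 normalized CPM for controls and 41.7, 44.9, 16.9 and 29.2 for knockouts. Knockouts 1, 2 and 4 again lay above every control, and knockout 3 was level with the lowest control. The log2 fold change was 0.67 (standard error 0.29, adjusted p = 0.671, edgeR), and Adam10 was called without knockout 3 (0.88, adjusted p = 0.0737) and with limma-voom (0.91, adjusted p = 0.0832), a fit in which 1.32% of all tested genes were called. The transport factor Cnih4 and the inactive rhomboid Rhbdf1 had log2 fold changes of -0.25 and 0.30, both with intervals across 0, and of -0.04 and -0.01 without knockout 3.

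Dll1 (ENSMUSG00000014773; chr17:15367354-15376872, minus strand), a Notch ligand of secretory progenitors and Paneth cells, had raw counts of 131, 48, 94 and 95 for controls 1 to 4 and of 59, 108, 60 and 52 for knockouts 1 to 4. In normalized CPM these were 8.24, 3.82, 8.46 and 7.52, and 3.52, 6.22, 7.07 and 3.16. Knockouts 1 and 4 lay below every control, and control 2 lay below knockouts 2 and 3. Control and knockout means were 7.01 ± 2.16 and 4.99 ± 1.95 normalized CPM, and the log2 fold change was -0.50 (standard error 0.36, 95% interval -1.28 to 0.28, adjusted p = 0.890, edgeR), with an exact permutation p of 0.171. Without knockout 3 the log2 fold change of Dll1 was -0.71 (adjusted p = 0.470). Of its exon bases 20.6% also belong to A930024N18Rik on the other strand, which held 1 to 20 counts in a library, so the count of Dll1 is uncertain by reads that may stem from that gene.

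Dll4 (ENSMUSG00000027314; chr2:119325784-119335962, plus strand), the second Delta ligand of the crypt base, had raw counts of 45, 81, 90 and 90 for controls 1 to 4 and of 65, 98, 56 and 67 for knockouts 1 to 4. The levels were 2.83, 6.45, 8.10 and 7.13 normalized CPM for controls and 3.87, 5.64, 6.60 and 4.08 for knockouts. All knockouts lay within the control range. Control and knockout means were 6.13 ± 2.30 and 5.05 ± 1.30 normalized CPM, and the log2 fold change was -0.28 (standard error 0.35, 95% interval -1.05 to 0.48, adjusted p = 0.960, edgeR), with an exact permutation p of 0.6. Without knockout 3 the log2 fold change of Dll4 was -0.43 (adjusted p = 0.701). Like Wnt3, Dll4 had its 4 lowest levels in the libraries with the 4 lowest Paneth marker sums. Gm14207 on the other strand shares 5.56% of its exon bases.

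Of the 5 Notch ligand genes, Dll1 and Dll4 held similar shares of the sum per kb: 36.0% ± 8.43 and 35.1% ± 12.5 in the controls, and 31.3% ± 6.54 and 35.4% ± 3.00 in the knockouts. The 3 other ligands all passed the filter and none was called. Jag1, the ligand of the Jagged class with the larger change, was at 2.77, 0.796, 1.89 and 1.35 normalized CPM for controls and 2.26, 3.46, 4.71 and 2.74 for knockouts (log2 fold change 0.93, standard error 0.44, adjusted p = 0.751, edgeR). Without knockout 3, its highest library, the log2 fold change of Jag1 was 0.71. Its levels overlapped through control 1, while its share of the Notch ligand sum was 3.67% to 10.8% in the controls and 13% to 18.8% in the knockouts. Those shares did not overlap, but they were not tested and are parts of 1 sum with Dll1 and Dll4. Dll3 and Jag2 had log2 fold changes of -0.65 and -0.69, and knockout 3 held 2 and 1 counts of them, against 22 to 41 and 13 to 37 in the other libraries. Without knockout 3 they were at -0.35 and -0.37.

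A further 8 genes act on Notch ligands or set how receptors respond to them, of which 6 passed the filter, with none called, 3 higher and 3 lower. Mib1, the ubiquitin ligase that Delta ligands need in order to signal, was at 37.3 ± 8.55 and 32.8 ± 12.3 normalized CPM (log2 fold change -0.18, standard error 0.29, adjusted p = 0.972, edgeR), and without knockout 3 its log2 fold change was 0.04. Lfng, a glycosyltransferase that modifies Notch receptors, had the largest change, from 2.10 ± 1.21 to 0.973 ± 0.24 (log2 fold change -1.13, standard error 0.49, adjusted p = 0.680, and -1.22 without knockout 3), and its groups did not overlap, against 4.52% of all tested genes. Rfng, of the same enzyme family, was at 0.12 (0.09 without knockout 3). Mfng, also of this family, failed the filter and was not tested. It had 6 to 18 counts in a control and 0 to 7 in a knockout, or 0.440 to 1.43 and 0 to 0.417 normalized CPM.

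Bst1 (ENSMUSG00000029082; chr5:43818885-43843986, plus strand) was scarce in both groups. Its raw counts were 0, 0, 1 and 0 for controls 1 to 4 and 13, 13, 0 and 3 for knockouts 1 to 4. Knockouts 1, 2 and 4 lay above every control and knockout 3 held none, as for Wnt6. The levels were 0.0225 ± 0.0450 normalized CPM for controls and 0.426 ± 0.394 for knockouts. The summed counts, 1 against 29, gave a ratio of 25.6 with a 95% counting interval of 4.25 to 1047, and the exact permutation test gave p = 0.143. The difference in mean level was 0.404 normalized CPM, and 0.546 without knockout 3. Bst1 failed the filter with all 8 libraries and with each library left out, and without a filter edgeR gave a log2 fold change of 3.98 (adjusted p = 0.251). Of its exon bases 2.95% also belong to Fbxl5 on the other strand. Fbxl5 held 312, 218, 203 and 291 counts for controls 1 to 4 and 296, 339, 111 and 481 for knockouts 1 to 4. Whether any Bst1 count stems from Fbxl5 was not tested.

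Cd38, the other enzyme of the same family, lies 24.6 kb past the end of Bst1 on the same strand and was well detected, with 97 to 247 counts in the controls and 131 to 227 in the knockouts. Per kb it stood at 3.81 ± 1.08 normalized CPM for controls and 3.22 ± 0.594 for knockouts, far above Bst1 in every library (log2 fold change -0.25, standard error 0.25, adjusted p = 0.943, edgeR, and -0.37 without knockout 3). Of the 7 genes of NAD and cyclic ADP-ribose metabolism 5 passed the filter, with none called, 2 higher and 3 lower. Nampt, which makes the NAD precursor nicotinamide mononucleotide, was at 10.8, 10.1, 13.9 and 11.4 normalized CPM for controls and 22.5, 21.7, 9.54 and 20.8 for knockouts. Knockouts 1, 2 and 4 exceeded every control and knockout 3 lay below every control. Its log2 fold change was 0.70 (standard error 0.26, adjusted p = 0.595), and it was called without knockout 3 (0.91, adjusted p = 0.0274) and with limma-voom (0.86, adjusted p = 0.0607). Naprt was at -0.17 (-0.02 without knockout 3), and Trpm2, a channel gated by ADP-ribose, at -0.77 with an interval of -1.95 to 0.42 (-0.55 without knockout 3).

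The 9 receptors for these ligands were measured in the same cells and all passed the filter, with none called, 2 higher, 7 lower and a median log2 fold change of -0.41. Erbb3, a partner of Egfr-family receptors, was the most abundant per kb, at 22.3 ± 3.61 and 15.5 ± 4.35 normalized CPM (log2 fold change -0.52, 95% interval -1.03 to -0.01, adjusted p = 0.698, edgeR), and the single receptor with an unadjusted p under 0.05. Knockout 3 was its lowest library (9.66), and without it the log2 fold change of Erbb3 was -0.36 (adjusted p = 0.497) and no receptor had an unadjusted p under 0.05. Lrp6, a Wnt co-receptor, was at 0.01 with an interval of -0.49 to 0.51 (-0.01 without knockout 3). Fzd5, a Frizzled receptor of Paneth cells, was at -0.83 (standard error 0.62, adjusted p = 0.899). Knockout 3 held 1 count of it, and without this library Fzd5 was at -0.47 (standard error 0.31, adjusted p = 0.621). Its exon bases overlap by 17.8% with Gm38058 on the other strand. Over all 69 companion genes, 39 passed the filter, 0 were called, and 8 had an unadjusted p under 0.05, 6 of them higher in the knockouts, against 4.35% of all tested genes, and 2 lower, against 2.53%. Without knockout 3 the same 39 genes had 7 higher and 1 lower, against 6.48% and 4.85%.

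**Figure D4:**
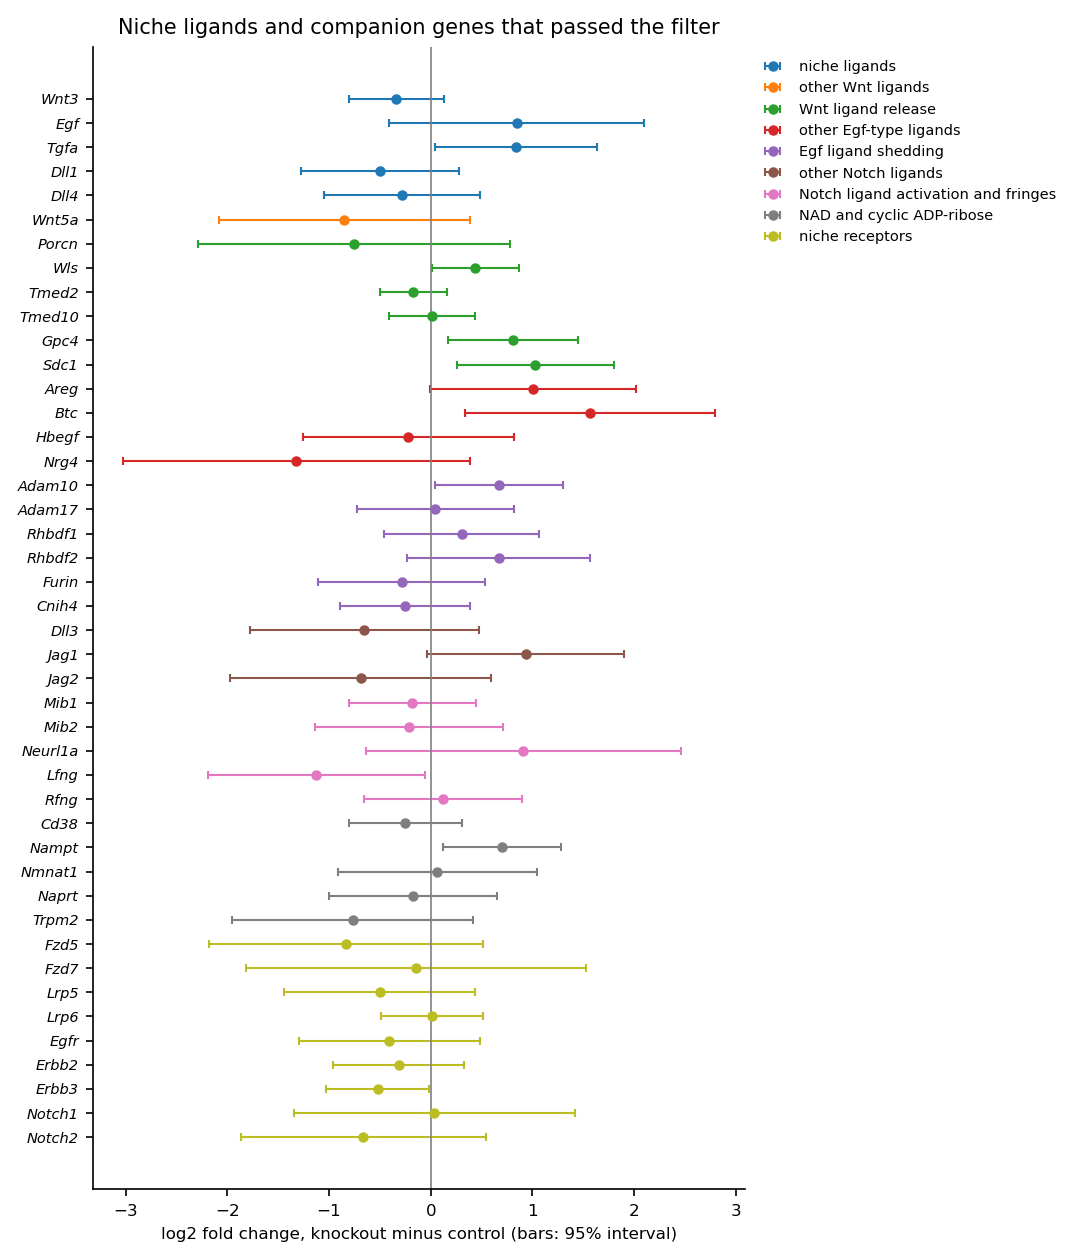
Log2 fold change (knockout minus control) with 95% interval from edgeR for the 5 ligands and 39 companion genes that passed the filter, coloured by gene list. No gene was called at a 10% false discovery rate, and Adam10, which is in both the shedding and the Notch activation lists, is drawn once.

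The genes whose library-to-library pattern was nearest to that of each tested ligand were found by the root mean square difference of mean-centred log2 normalized CPM over the 8 libraries, among the 13439 tested genes. For Wnt3 they were Osbpl2 (0.0709), Paip2b (0.102) and Muc13 (0.103), where Wnt3 itself varied by 0.302 about its mean. For Egf they were Vps11 (0.185), Fut1 (0.221) and Slc30a6 (0.245), against a spread of 0.757. For Tgfa they were Pim1 (0.146), Klf6 (0.201) and Pitpnc1 (0.212), against 0.517. Dll1 was nearest to Fstl1 (0.148), Taf5l (0.160) and Slc33a1 (0.188), and Dll4 to Spcs2-ps (0.154), Sec22b (0.155) and Ufm1 (0.162), against 0.459 and 0.404. No other ligand was among the 3 nearest genes of a ligand. These are descriptions over 8 libraries that share scaling and depth.

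Leaving out each library in turn kept the sign of 4 of the 5 tested ligands. Wnt3 ranged from -0.50 to -0.24, Tgfa from 0.47 to 1.04, Dll1 from -0.71 to -0.33 and Dll4 from -0.52 to -0.12. Egf ranged from -0.18 to 1.12, with the negative value without knockout 3. Wnt6 was tested in 5 of the 8 fits, with log2 fold changes of 4.18 to 7.02. In the 16 alternative fits other than those without a filter and without knockout 3, none of the ligands was called, while between 0.108% and 1.41% of the tested genes were.

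**Figure D5:**
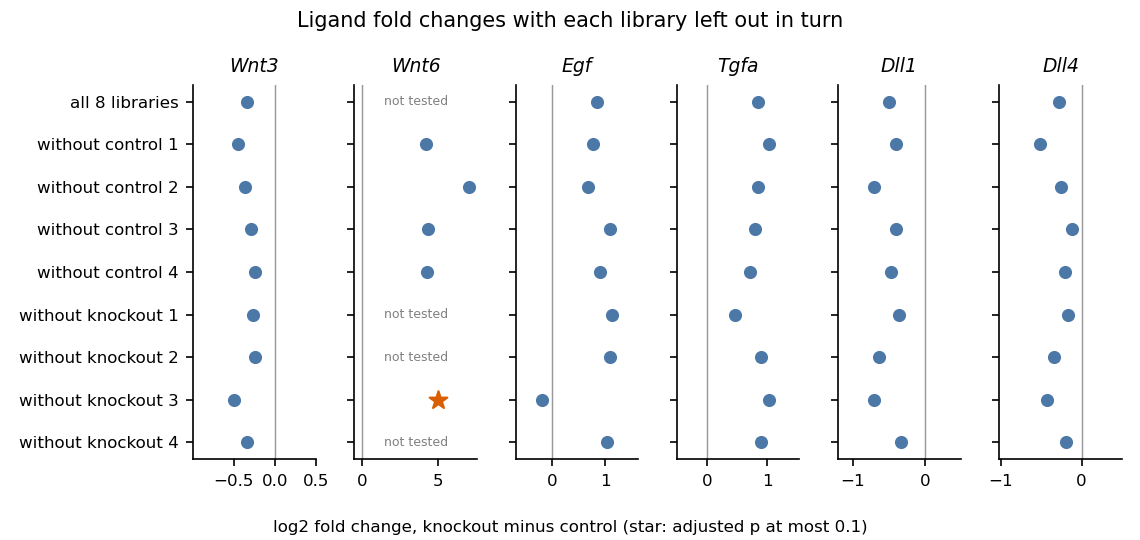
Log2 fold change (knockout minus control) of 6 ligands with all 8 libraries and with each library left out, each panel with its own linear axis. Egf lies between 0.67 and 1.12 in the other fits and at -0.18 without knockout 3, and the star marks the single call, Wnt6 without knockout 3.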

How the data were processed

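RNA of sorted small intestinal Paneth cells was measured in 4 control and 4 knockout samples with the Smart-seq2 protocol, grouped by the genotype in their GEO labels. Replicates were numbered here in accession order without pairing. The labels do not say how the animals relate. The study gives independent mice per genotype and calls the animals of the sort littermates, and control 4 and knockout 4 carry 1 animal number under different genotypes, which was not used for pairing. The authors aligned reads to mm10 with GSNAP and assigned reads with a unique position to Ensembl genes with featureCounts 1.6.3. Demultiplexing used bcl2fastq 2.19.1 (submitters' processing notes). The deposited values are raw counts per gene and library, without normalization and without molecular identifiers, and no strand setting is given in the sources used here. Totals lay between 13037832 and 14380240, and 92 spike-in rows, at most 8.4e-05% of a library, were left out. Symbols were matched by identifier for 53620 of 53801 genes. No pair of libraries agreed within sampling noise (smallest chi-square per degree of freedom 10.78).

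From the counts, edgeR 4.0.16 in R 4.3.3 gave TMM factors (0.632 to 1.337), filterByExpr (minimum count 10, minimum total 15), a robust quasi-likelihood test on genotype (common biological coefficient of variation 0.376) and Benjamini-Hochberg adjustment over 13439 genes; a gene was called at a false discovery rate of 10%. Standard errors were approximated from the F statistic, and fold changes are log2. Single genes were tested with exact two-sided permutation tests. Counting ratios have 95% exact binomial intervals. Companion genes are named when called, when among the 3 highest per kb of their list, or when the most changed tested gene; others were named after their values were seen. The ligands, lists and tests were chosen with earlier results of these data known, so no list is independent evidence. Alternatives were DESeq2 1.42.0 (size factors and Wald test), upper-quartile factors, library sizes that leave out the 50 genes with the most reads, a fit on all genes with a count, a minimum of 10 counts throughout, limma-voom (limma 3.58.1) with quality weights, no robust step, the run of label numbers as a block, each library left out and a stricter cutoff; library totals alone the scalings of Wnt6 and Bst1, marker sums without Lyz2 or Spink4, and marker genes with a library left out were added after seeing the data. On simulated data with the real means and library sizes, edgeR recovered 81.8% of 99 genes planted at 4-fold and 9.1% of 99 at 2-fold among 13092 genes, with 8.2% of its calls false.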

Additional observations from a re-analysis of the deposited data

Results flagged for a closer look

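Of 34 groups of 4 libraries examined (the 9 ligands and the 8 marker sums in each genotype), 7 had 1 library set apart from the others by a gap test (Dixon, 95% level). In 4 of the 7 the other 3 libraries were at 0, which fixes the gap at the whole range, so that no chance rate applies to them. Of the other 30 groups 3 were set apart, where chance gives about 1.5. In normalized CPM, Egf in knockout 3 was 21.33, against 3.34 to 4.93 in the other 3 knockouts. The sum of the Paneth markers in knockout 3 was 771600, against 248700 to 337700 in the other knockouts, and that of the 7 immune markers 632.8, against 177 to 236. Lyz2 gave 625.9 of the latter, and the other 6 immune markers summed to 6.95 in knockout 3 and to 7.36 to 23.4 in the other knockouts. The other 4 rest on 1 or 2 counts beside libraries at 0: Wnt6 in control 2 (0.1592, 2 counts), Wnt11 in control 4 (0.07917, 1 count), Wnt11 in knockout 1 (0.1192, 2 counts) and Bst1 in control 3 (0.09002, 1 count).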

How the results depend on the processing

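The number of genes called in the genotype comparison was 38, and it was 383 without a filter on low counts, 20 with at least 10 counts in every library, 190 with the DESeq2 Wald test, 178 with limma-voom, 25 under the stricter cutoff and 20 with library totals alone, a setting chosen after seeing the data. On the simulated data 25.3% of the calls of DESeq2 and 5.7% of those of limma-voom were false, against 8.2% for edgeR. With each library left out the number called by edgeR ranged from 15 to 223, the highest without knockout 3. Of the 9 ligands 0 were called with all libraries, 1 (Wnt6) without a filter, and 0 to 1 with a library left out (Wnt6 without knockout 3). Of the companion genes 0 were called, against 1 without a filter (Btc), 3 with limma-voom (Sdc1, Adam10 and Nampt) and 0 to 2 with a library left out (Adam10 and Nampt without knockout 3). The log2 fold change of Egf changed sign with limma-voom (-0.15) and ranged from -0.18 to 1.12 with a library left out, while those of Wnt3, Tgfa, Dll1 and Dll4 kept their sign in all 18 alternative fits and were called in none. The mean differences of Wnt6 and Bst1, whose sign the near absence of control counts fixes, were at most 1.39 and 0.535 normalized CPM under the 4 other scalings (with library totals alone), and ranged from 0.569 to 1.44 and from 0.288 to 0.546 with a library left out. The run of label numbers as a block gave 46 calls and no ligand. No paired analysis was made, although the study calls the animals littermates. The labels number no replicates, do not say which animals belong together, and the groups share a single animal number. Causes of these shifts were not tested. Depth limits Wnt6, Wnt9b, Wnt11 and Bst1, where 3 counts are 0.173 to 0.354 normalized CPM, and on simulated data most 2-fold changes were missed, so that a ligand that was not called is not shown to be the same in both genotypes.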
